A study of Caenorhabditis elegans with 6 samples.

Results

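The heterochronic regulators are the genes that tell the cells of a *Caenorhabditis elegans* larva which larval stage they are in. The 7 described here, *lin-14*, *lin-28*, *hbl-1*, *daf-12*, *lin-46*, *lin-41* and *lin-29*, were chosen by symbol, with earlier results of these data known. They were taken as early and late regulators that can be read as a check on developmental age. All 7 were among the 21507 listed genes, and all 7 were among the 15169 genes that passed the filter on low values, a mean of at least 10 normalized counts over the 6 libraries.

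In this pathway each larval stage has its own set of cell fates, and microRNAs move the animal forward by switching off the regulator of the stage before. The microRNA *lin-4* represses *lin-14* and *lin-28*, the *let-7* family represses *hbl-1*, and *let-7* itself represses *lin-41*, after which the transcription factor LIN-29 starts the adult programme of the epidermis. Early regulators are therefore abundant in young larvae, while LIN-29 acts at the end of larval life. Much of this control acts on translation as well as on the transcript, so transcript levels report only part of it. Several of the genes also work outside the epidermis: *lin-41* and *lin-28* act in the germ line, and *lin-14*, *lin-28* and *hbl-1* in neurons.

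Whole-body RNA of untreated L4 hermaphrodites, larvae of the stage before adulthood, was sequenced from wild type (strain N2, 3 libraries) and from animals labelled as a glna knockout (3 libraries). Glutaminases, the products of the glna genes, turn glutamine into glutamate. The labels do not say which of these genes was knocked out, nor whether each replicate came from its own culture. The p-values therefore reflect the spread among these libraries alone, and that may be technical. No library of another stage or of a timed series is among the samples, so the levels below can be compared between the genotypes and not placed on a clock.

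The libraries held 18443661 to 19861540 reads in genes. All 3 *glna* genes were lower in every knockout library than in any of wild type. *glna-1* lay between 255 and 270 normalized counts in wild type and between 128 and 187 in the knockout, *glna-2* between 408 and 519 and between 37.4 and 69.5, and *glna-3* between 636 and 761 and between 83.1 and 175. Knockout replicate 1 stood apart, with 3.58% of its reads in ribosomal RNA genes (0.331% to 0.763% in the other 5 libraries) and 13.7% in its 10 most abundant genes (5.21% to 6.60%). Results that rest on it are given with and without it.

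Across the 7 regulators, limma called 0 as changed at an adjusted p under 0.05, where 0.356% of all tested genes were called (0.211% as higher). At an unadjusted p under 0.05 there was 1 (*lin-41*), against 22.6% of all tested genes. edgeR on the recovered reads also called 0 (1 unadjusted), where it called 0.0593% of genes. DESeq2 on those reads and the authors' deposited table called 1, *lin-41*, where they called 8.11% and 8.14% of the genes tested; 4.01% of genes were called higher in the deposited table. DESeq2 without knockout replicate 1 also called *lin-41*, with 5.12% of genes called. For 4 of the 7, *lin-14*, *hbl-1*, *daf-12* and *lin-41*, all 3 knockout libraries lay above all 3 wild-type libraries, and for 0 did they lie below. Among all tested genes 15.3% had such groups with the knockout higher and 15.2% with the knockout lower. The median log2 fold change of the 7 was 0.24 (0.13 without knockout replicate 1), and that of all tested genes was 0.01. The log2 fold change was above 0 for 5 of the 7 and for 51.2% of all tested genes.

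**Figure D1:**
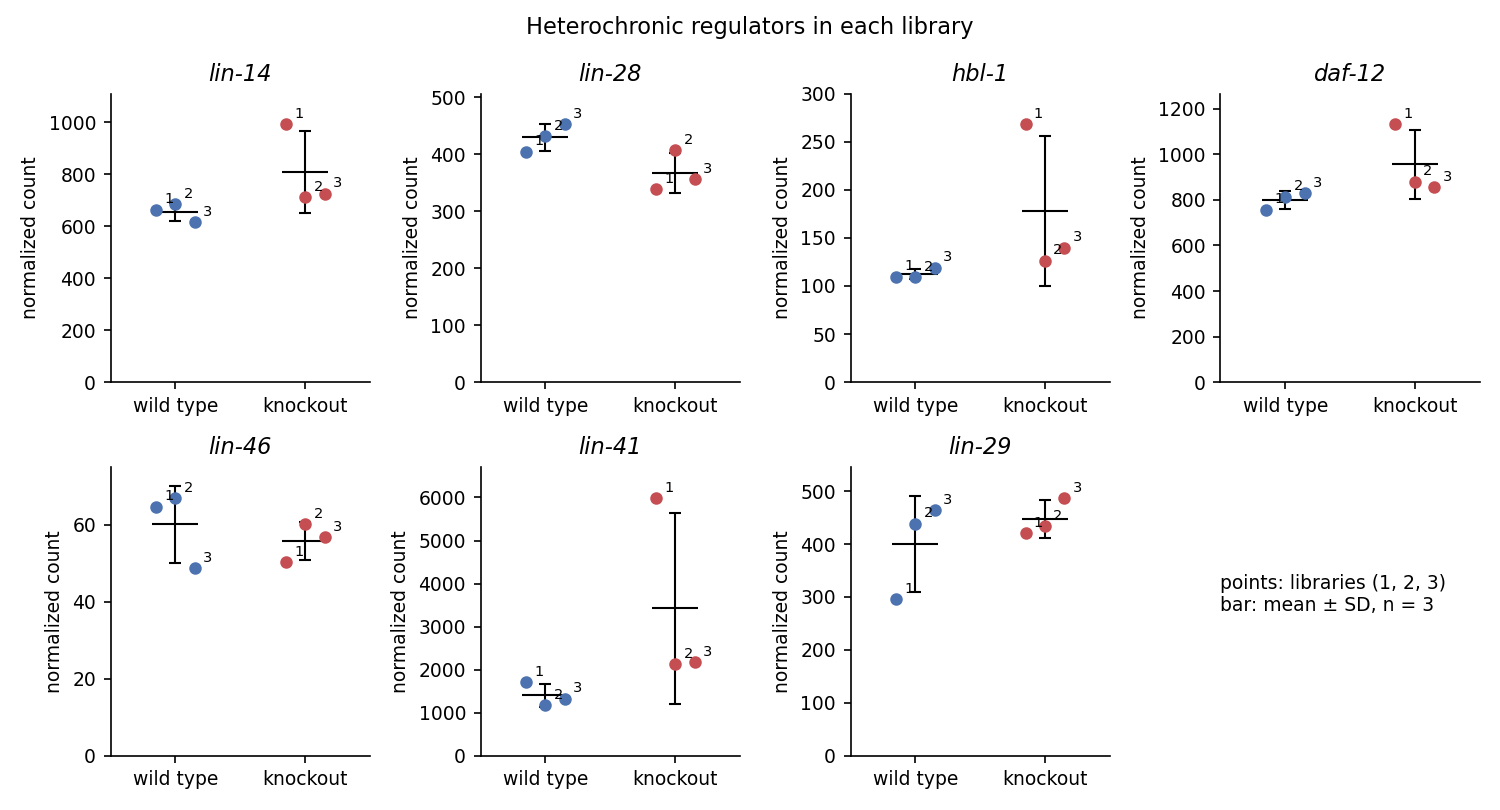
Normalized counts (vertical axes, each from 0) of the 7 regulators in the 3 wild-type and 3 knockout libraries; points are libraries, numbered by replicate, and bars are the mean ± SD (n = 3). *lin-41* and *hbl-1* were highest in knockout replicate 1, at 5990 and 268, while *lin-29*, *lin-46* and *lin-28* overlapped between the genotypes.

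Among the early regulators, *lin-14* encodes a nuclear protein that specifies the earliest larval fates. *lin-14* (T25C12.1, chromosome X, 11468500 to 11484267, plus strand, WBcel235) gave 665, 686 and 617 normalized counts in wild type replicates 1, 2 and 3, against 992, 712 and 725 in knockout replicates 1, 2 and 3. The groups did not overlap, but knockout replicates 2 and 3 lay just above the highest wild-type library, and knockout replicate 1 held most of the difference. The means were 656 ± 35.3 and 810 ± 158 (SD, n = 3 each), a ratio of 1.23, which was 1.10 without knockout replicate 1. The fit gave a log2 fold change of 0.29 (SE 0.15, limma adjusted p = 0.295), with a 95% interval of the fold from 0.957 to 1.56. In whole-body RNA, more cells that express a gene and more transcript per cell cannot be told apart, here or for any value below. Exons of *lin-14* also hold 2 annotated small nucleolar RNA genes on the same strand, which cover 2.95% and 2.70% of its exon bases, so the division of reads there is uncertain.

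*lin-28* encodes an RNA-binding protein that blocks maturation of *let-7* and holds cells in early larval fates. *lin-28* (F02E9.2, chromosome I, 8407802 to 8409976, minus strand) gave 405, 432 and 452 normalized counts in the wild-type libraries against 339, 407 and 356 in those of the knockout. It was the early regulator that leaned the other way: knockout replicates 1 and 3 lay below every wild-type library, and knockout replicate 2 lay just above the lowest one. The means were 430 ± 23.98 and 368 ± 35.5, and the log2 fold change was -0.23 (SE 0.13, limma adjusted p = 0.326), -0.17 without knockout replicate 1. The 95% interval of the fold ran from 0.694 to 1.05, so that a fall to below 0.694 of the wild-type level lies outside it.

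*hbl-1* encodes a zinc finger protein related to Hunchback of *Drosophila*, which promotes the fates of the L2 stage and prevents later ones. *hbl-1* (F13D11.2, chromosome X, 5822277 to 5826434, plus strand) gave 110, 109 and 118.95 normalized counts in the wild-type libraries against 268, 126 and 140 in those of the knockout. Wild type was tight, with a coefficient of variation of 4.83%, and the knockout was not, at 43.9%, because replicate 1 was far above replicates 2 and 3. The ratio of means was 1.58, and 1.18 without knockout replicate 1. The log2 fold change was 0.57 (SE 0.28, limma adjusted p = 0.256), with a 95% interval of the fold from 0.958 to 2.31, and 0.24 (SE 0.16) without knockout replicate 1.

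*daf-12* encodes the nuclear receptor for the steroid hormones called dafachronic acids, and couples L3 fates and the choice of dauer arrest to hormone supply. *daf-12* (F11A1.3, chromosome X, 10644407 to 10666869, plus strand) gave 757, 814 and 831 normalized counts in the wild-type libraries against 1131, 881 and 856 in those of the knockout. The groups did not overlap, and knockout replicate 1 was again the highest. The means were 801 ± 38.5 and 956 ± 152, a ratio of 1.19 (1.08 without knockout replicate 1), with a log2 fold change of 0.24 (SE 0.14, limma adjusted p = 0.320) and a 95% interval of the fold from 0.951 to 1.48.

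*lin-46* encodes a protein related to gephyrin that opposes HBL-1 and acts downstream of *lin-28* to allow L3 fates, and is counted as a late regulator in the balance below. *lin-46* (R186.4, chromosome V, 12968853 to 12970732, plus strand) was the regulator with the fewest reads, 43 to 68 per library. It gave 64.8, 67.0 and 48.7 normalized counts in the wild-type libraries against 50.3, 60.3 and 56.9 in those of the knockout, and the knockout lay within the range of wild type. The log2 fold change was -0.10 (SE 0.22, limma adjusted p = 0.818), with a 95% interval of the fold from 0.661 to 1.32. A change within these bounds was not excluded at this depth and spread, and no limit of detection was computed.

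*lin-29*, the other late regulator, encodes the zinc finger transcription factor that drives the switch from larva to adult in the epidermis. *lin-29* (W03C9.4, chromosome II, 11918339 to 11935343, minus strand) gave 296, 439 and 464 normalized counts in the wild-type libraries against 421, 433 and 487 in those of the knockout. Wild type replicate 1 lay apart from the other 5 libraries, which fell between 421 and 487. The means were 399 ± 90.5 and 447 ± 35.1, with a log2 fold change of 0.19 (SE 0.19, limma adjusted p = 0.570) and a 95% interval of the fold from 0.847 to 1.53. Without wild type replicate 1 the log2 fold change was -0.015, so its direction rested on that library.

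*lin-41* encodes an RNA-binding protein of the TRIM-NHL family and, as a target of *let-7* that holds back the adult programme, is counted with the early side in the balance. In the epidermis it holds back LIN-29 until *let-7* rises, and in the germ line it is needed for growing oocytes. *lin-41* (C12C8.3, chromosome I, 9335772 to 9342496, minus strand) gave 1704, 1166 and 1325 normalized counts in the wild-type libraries against 5990, 2124 and 2168 in those of the knockout. All knockout libraries lay above all wild-type ones, with knockout replicates 2 and 3 close together and replicate 1 far above both. The means were 1399 ± 276 and 3427 ± 2219, a ratio of 2.45, which was 1.53 without knockout replicate 1. The log2 fold change was 1.13 (SE 0.37) with a 95% interval of the fold from 1.21 to 3.96, and 2.02% of all tested genes (307) had a higher one.

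Tests of *lin-41* disagreed. limma gave an adjusted p of 0.141, and edgeR 0.128. DESeq2 on the recovered reads gave an adjusted p of 0.00980, as did the authors' deposited table (0.00980, log2 fold change 1.29). Both called 1236 genes, with near-identical values for each regulator, so they stand for the same result and not for separate tests. Without knockout replicate 1, limma gave a log2 fold change of 0.64 (SE 0.16, adjusted p = 0.140) and DESeq2 0.62 (adjusted p = 0.0257), so both kept the direction and the size fell. The DESeq2 call was lost without wild type replicate 2 (log2 fold change 1.17, adjusted p = 0.133) or 3 (1.25, adjusted p = 0.0789), while the fold stayed near that with all libraries. With the replicate number as a block, limma's adjusted p was 0.0449, although whether the numbers pair the samples was not settled.

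**Figure D2:**
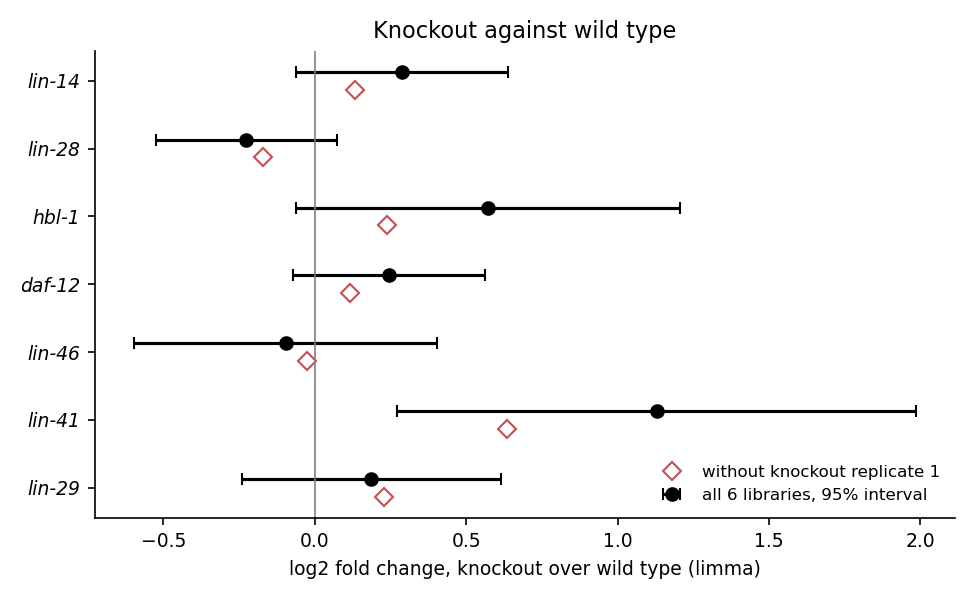
Log2 fold change of knockout over wild type for each regulator (horizontal axis, limma on log2(normalized count + 1)); filled points with 95% intervals use all 6 libraries and open diamonds leave out knockout replicate 1. *lin-41* was at 1.13 with all libraries and 0.64 without that library, and the intervals of the other 6 regulators include 0.

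Because *lin-41* is also an oocyte gene, markers of the germ line were set beside it. Relative to the wild-type mean on the log2 scale, *lin-41* was at 0.30, -0.24 and -0.06 in wild type replicates 1, 2 and 3 and at 2.12, 0.62 and 0.65 in knockout replicates 1, 2 and 3. The median of 15 oocyte markers was at 0.49, -0.31 and -0.15 and at 1.76, 0.57 and 0.69 in the same libraries. The libraries fall in much the same order for both, with wild type replicate 1 the highest of wild type and knockout replicate 1 the highest of all. The difference between *lin-41* and the oocyte median was at most 0.35 in any library, in knockout replicate 1. The summed level of the 15 markers ran from 21367 to 34739 normalized counts in wild type and from 37435 to 93168 in the knockout, with no overlap, and 0 of the 15 were listed at 0.

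Of the 15 oocyte markers, 15 had positive log2 fold changes (median 1.03, and 0.64 without knockout replicate 1), 13 were higher at an unadjusted p under 0.05 (10.9% of all tested genes), 0 passed limma's adjusted threshold and 6 were higher in the authors' deposited table (4.01% of all tested genes). DESeq2 on the recovered reads also called 6. With a library left out it called 12, 0 and 0 (wild type 1 to 3) and 1, 11 and 7 (knockout 1 to 3). Without knockout replicate 1 it called 5.12% of all genes tested. Among them, *egg-2* and *egg-1*, which encode receptor-like proteins of the oocyte surface needed at fertilization, had log2 fold changes of 1.11 and 1.15 (limma adjusted p = 0.108 and 0.142). *spn-4*, an RNA-binding gene of the early embryo, was at 0.91 (0.127), and *chs-1*, the chitin synthase of the eggshell, at 0.95 (0.155). The most abundant were *perm-4* at 0.65 and *cbd-1* at 1.57, both genes of the eggshell. Without knockout replicate 1 the log2 fold changes were 0.77 for *egg-2*, 0.71 for *egg-1*, 0.58 for *spn-4*, 0.54 for *chs-1*, 0.41 for *perm-4* and 0.87 for *cbd-1*. The part of oocyte content in the level of *lin-41* was not tested.

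Over the 6 libraries, the genes whose centred log2 values lay nearest to those of *lin-41* were of several kinds. Among the companion lists they were *rme-2*, the yolk receptor of oocytes, at a root-mean-square distance of 0.096, and the yolk protein gene *vit-6*, at 0.13. Among 12220 genes that had a symbol and averaged 50 or more, the nearest were *mrp-4*, a transporter gene, at 0.091, and again *rme-2*. The distance of *lin-41* from a flat profile was 0.77.

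**Figure D3:**
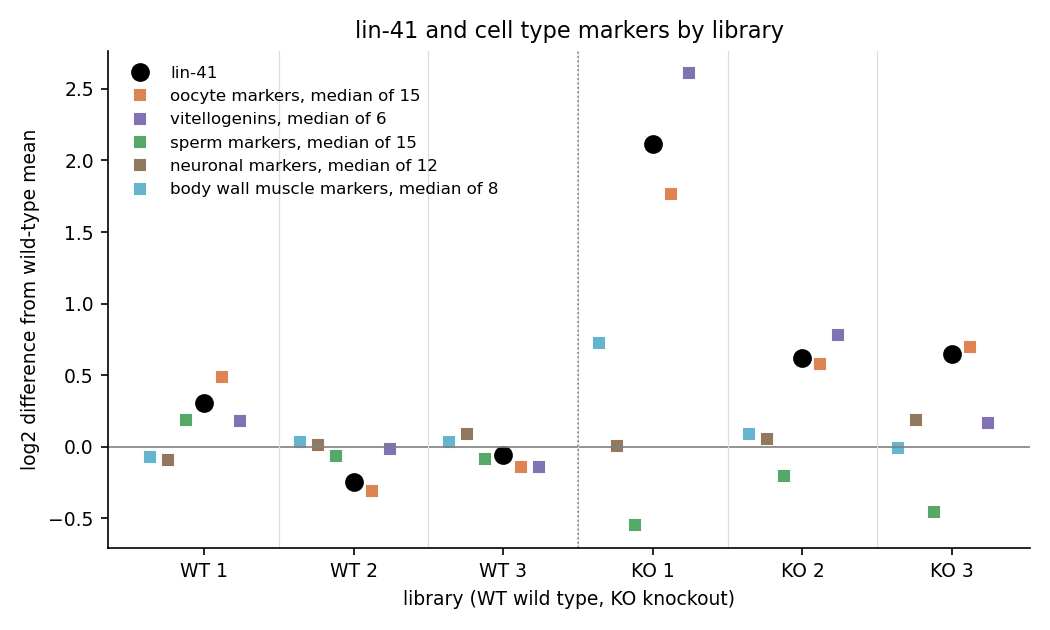
Log2 difference from the wild-type mean (vertical axis) in each of the 6 libraries for *lin-41* and for the median of 5 marker lists, with points set side by side within a library. *lin-41* lay near the oocyte median in every library, at 2.12 and 1.76 in knockout replicate 1. Single oocyte markers ran from 0.74 to 2.97 in that library. There the yolk median was at 2.61, the body wall muscle median at 0.72 and the sperm median at -0.55. The neuronal median stayed between -0.09 and 0.18 over the 6 libraries.

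The other marker lists gave a frame for the remaining regulators. Neuronal markers, which cover a tissue that uses *lin-14*, *lin-28* and *hbl-1*, summed to between 7787 and 8382 normalized counts in wild type and between 8328 and 9468 in the knockout. Their median log2 fold change was 0.07 over 12 genes, with 0 below an unadjusted p of 0.05. *snb-1*, synaptobrevin, was at 0.14 (limma adjusted p = 0.467) and *egl-3*, a neuropeptide convertase, at 0.26 (0.291). Seam cells are the epidermal stem cells whose divisions the pathway times. Of 9 seam cell factors 6 passed the filter, and their median log2 fold change was 0.17. The GATA factor genes *elt-1* and *egl-18* were at -0.06 (0.872) and 0.55 (0.209), or 0.03 and 0.32 without knockout replicate 1, and the sum of the list was 405 to 488 in wild type and 481 to 529 in the knockout. *elt-1* is also counted with the timing regulators below.

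Sperm markers, the product of the hermaphrodite germ line at L4, leaned the opposite way to oocyte markers. Their median log2 fold change was -0.37 over 15 genes; 14 were below 0, 6 were lower at an unadjusted p under 0.05 (11.8% of all tested genes) and 0 passed limma's adjusted threshold. The authors' deposited table called 2 as lower, *fer-1* and *ssq-4*, where it called 4.13% of all tested genes lower. *fer-1*, a ferlin gene of sperm, was at -0.68 (limma adjusted p = 0.0547), and *ssq-4* at -0.69 (0.121). The most abundant, *ssq-2* and *msp-31*, were at -0.37 (0.240) and -0.37 (0.222). Yolk protein genes summed to between 266665 and 365772 in wild type and between 437383 and 1663028 in the knockout. *vit-6* and *vit-2* were at 1.23 (0.137) and 1.44 (0.123), and the median of the 6 was 1.19. Without knockout replicate 1 these values were 0.73, 0.90 and 0.47. Body wall muscle markers had a median of 0.28 (0.05 without knockout replicate 1), with *unc-54*, the major myosin, at 0.38 (0.363) and *unc-15*, paramyosin, at 0.41 (0.259), which were 0.12 and 0.19 without that library.

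Gene length moved with the values of knockout replicate 1. In that library the median log2 difference from the wild-type mean, over all tested genes, went from -0.23 for genes of up to 1 kb (5291 genes) through 0.03 for 1 to 2 kb (6426), 0.20 for 2 to 3 kb (2051), 0.33 for 3 to 4 kb (750) and 0.44 for 4 to 5 kb (326) to 0.63 for longer genes (325). In the other 5 libraries the medians stayed between -0.08 and 0.10 in every class. By deposited length, *lin-28* (1.34 kb), *lin-46* (1.37 kb) and *lin-14* (1.92 kb) belong to the class of 1 to 2 kb, *lin-29* (2.31 kb) to the next, *hbl-1* (3.03 kb) and *lin-41* (3.83 kb) to that of 3 to 4 kb, and *daf-12* (4.11 kb) to that of 4 to 5 kb.

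In knockout replicate 1, *daf-12* was at 0.50, near the median of its length class. *lin-41* at 2.12 and *hbl-1* at 1.24 lay above the 90th percentile of theirs, which was 0.91, and *lin-14* at 0.60 lay below the 90th percentile of its class, 0.75. *lin-29* at 0.10, *lin-46* at -0.24 and *lin-28* at -0.34 lay under the medians of their classes. The part of length in these values was not tested. Groups that did not overlap, with the knockout higher, were found for 9.58% of genes of up to 1 kb and for 25.1% of those of 3 to 4 kb.

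**Figure D4:**
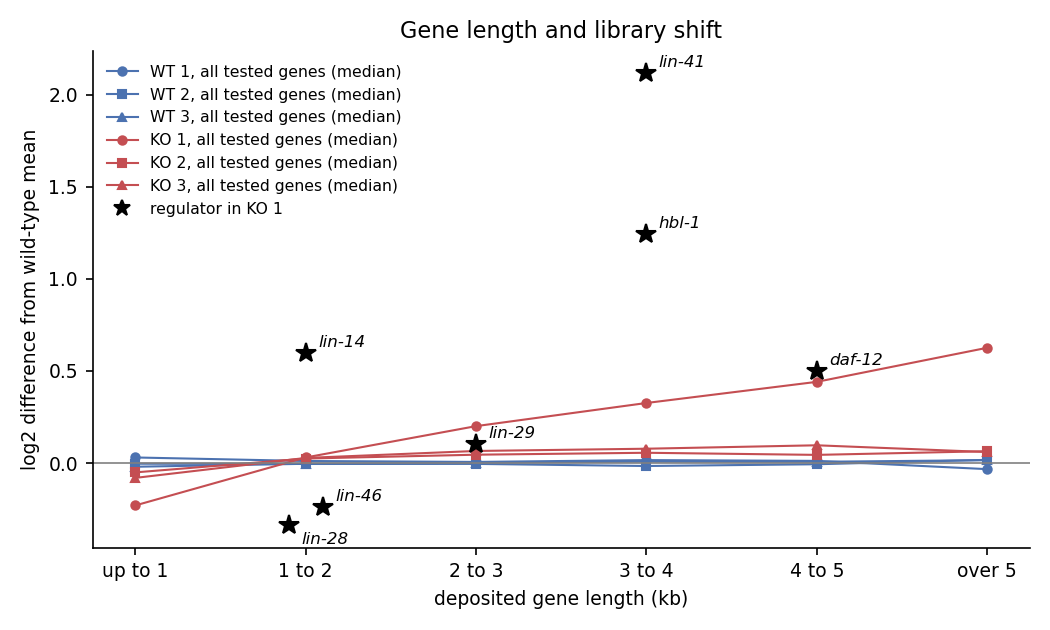
Median log2 difference from the wild-type mean (vertical axis) over all tested genes by class of deposited gene length (horizontal axis, kb), for each library; stars are the 7 regulators in knockout replicate 1. In that library the medians climbed with length from -0.23 to 0.63, while those of the other 5 stayed between -0.08 and 0.10, and *daf-12* lay near the median of its class while *lin-41* and *hbl-1* lay far above theirs.

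The nearest profiles of the other regulators were taken in the same way. Of the genes named next, *let-607*, *lin-66*, *alg-1* and *nhl-2* were highest in knockout replicate 1, as *lin-14*, *daf-12* and *hbl-1* were. For *lin-14* the nearest in the lists were *let-607* (distance 0.086) and *lin-66* (0.098), and among all genes *unc-76* (0.025) and *pqn-41* (0.030). For *daf-12* they were *let-607* (0.068) and *alg-1* (0.072), then *hst-1* (0.032) and K09A9.6 (0.034). For *hbl-1* they were *unc-22* (0.085), the long muscle gene of twitchin, and *nhl-2* (0.11), then F13H8.3 (0.057) and *imp-1* (0.072).

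For *lin-28* the nearest were *lev-11* (0.068) and *lep-2* (0.086), then T25B9.5 (0.033) and *acdh-3* (0.034). For *lin-46* they were *ncr-1* and *kin-20* (both 0.10), then R144.13 (0.045) and E01B7.2 (0.050). For *lin-29* they were *unc-119* and *rgef-1* (both 0.14), then *ets-9* (0.054) and *glt-3* (0.056). Distances of these 6 regulators from a flat profile were 0.22 for *lin-14*, 0.18 for *daf-12*, 0.44 for *hbl-1*, 0.15 for *lin-28*, 0.17 for *lin-46* and 0.23 for *lin-29*. Over 6 libraries many genes come this close, so the names are a description only.

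The order of the regulators by level was read per length, as normalized counts per kb of deposited gene length. In wild type the levels were 365 ± 72.1 for *lin-41*, 341 ± 18.3 for *lin-14*, 321 ± 17.9 for *lin-28*, 195 ± 9.39 for *daf-12*, 173 ± 39.2 for *lin-29*, 44.0 ± 7.30 for *lin-46* and 37.2 ± 1.798 for *hbl-1* (SD, n = 3). The ranges of *lin-41*, *lin-14* and *lin-28* overlapped, as did those of *daf-12* and *lin-29* and those of *lin-46* and *hbl-1*. In the knockout the order was the same at the top, with *lin-41* at 894 ± 579, *lin-14* at 421 ± 82.1, *lin-28* at 275 ± 26.5, *daf-12* at 233 ± 37.1 and *lin-29* at 194 ± 15.2, and *hbl-1* at 58.8 ± 25.8 stood above *lin-46* at 40.8 ± 3.69. The order depends on the length used. With the longest annotated transcript of each gene, *lin-28* came first in wild type at 328 per kb, above *lin-41* at 292. *lin-14*, whose longest transcript has 3346 bases against a deposited length of 1923, was then at 196, close to *daf-12* at 208 and *lin-29* at 173.

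Ratios between regulators within a library, per kb, do not depend on the scaling of that library. *lin-29* over *lin-28*, a late over an early regulator, was 0.424, 0.588 and 0.593 in wild type replicates 1, 2 and 3 and 0.719, 0.616 and 0.792 in the knockout. The knockout lay above wild type in 3 of 3 libraries, by a small margin in replicate 2. *lin-29* over *lin-14*, another late over early ratio, gave 0.371, 0.532 and 0.626 in wild type against 0.354, 0.506 and 0.559 in the knockout, and the groups overlapped. *lin-41* over *lin-29* was 3.47, 1.60 and 1.72 in wild type against 8.57, 2.95 and 2.68 in the knockout, with wild type replicate 1 above knockout replicates 2 and 3. *lin-14* over *hbl-1*, both early, was 9.55, 9.88 and 8.17 in wild type against 5.83, 8.89 and 8.17 in the knockout. These 4 ratios were the ones computed, and they were not tested.

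A balance of late against early regulators was then formed for each library. It is the mean log2 difference from the wild-type mean of *lin-29* and *lin-46* minus that of *lin-14*, *lin-28*, *hbl-1* and *lin-41*, so that a lower value means relatively more early transcript. *daf-12*, which acts in either direction depending on its hormone, is in neither side. The balance was -0.19, 0.22 and -0.02 in wild type replicates 1, 2 and 3 and -0.97, -0.13 and -0.09 in knockout replicates 1, 2 and 3. Knockout replicates 2 and 3 lay within the range of wild type, and knockout replicate 1 lay well below it. The difference of means was -0.40, and -0.11 without knockout replicate 1. In that library medians over all tested genes rose with length, from 0.03 at 1 to 2 kb to 0.33 at 3 to 4 kb. The early side holds *hbl-1* (3.03 kb) and *lin-41* (3.83 kb) beside *lin-14* (1.92 kb) and *lin-28* (1.34 kb). The late side holds *lin-29* (2.31 kb) and *lin-46* (1.37 kb). The part of length in the balance was not tested. With *lin-28* and *lin-41*, the regulators shared with the germ line, left out of the early side, knockout replicate 1 was still lowest, at -0.99. Knockout replicates 2 and 3 were then at -0.06 and -0.10. In knockout replicate 1 *lin-41* was at 2.12 and *lin-28* at -0.34, on opposite sides of the wild-type mean. Leaving out both therefore does not show the weight of *lin-41*, and the balance without *lin-41* alone was not computed. With *lin-29* alone as the late side, the difference of means was smaller, at -0.25. Wild type was then at -0.45, 0.21 and 0.24 and the knockout at -0.80, -0.06 and 0.10, so that wild type replicate 1 lay below knockout replicates 2 and 3.

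Companion genes of the pathway were read from lists that, like the regulators, were chosen with results of these data known. Of the 109 companion genes tested, marker lists included, limma called 0 at an adjusted p under 0.05 and 31 had an unadjusted p under 0.05, of which 13 were oocyte markers. edgeR called 0 (34 unadjusted), and the authors' deposited table called 10, of which 7 were higher and 3 lower. Over all tested genes 22.6% had an unadjusted limma p under 0.05 and 8.14% were called in the authors' deposited table. The pooled counts of these 2 tests lie near that background, but the lists differed. At an unadjusted limma p under 0.05, 13 of 15 oocyte markers were higher, 6 of 15 sperm markers lower and 0 of 12 neuronal markers either. The pooled count also depended on the setting. With the replicate block, limma called 17 of the 109, and 688 of all 15169 tested genes.

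The microRNAs themselves could hardly be read. *let-7*, which passed the filter, gave 5.98, 32.5 and 24.4 normalized counts in the wild-type libraries against 5.85, 10.5 and 35.7 in those of the knockout, with both replicates numbered 1 lowest. *mir-48*, *mir-84* and *mir-241*, its family members that repress *hbl-1*, stayed at or under 4.82 in every library. Counts at these rows need not reflect the mature microRNA, and *lin-4* and *mir-237* were not analysed here.

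The 13 genes of the microRNA machinery and its cofactors centred on a log2 fold change of 0.31, or 0.13 without knockout replicate 1. At an unadjusted p under 0.05, 3 were higher and 0 lower, and 4 had all knockout libraries above wild type, against 10.9%, 11.8% and 15.3% of all tested genes. *cgh-1*, an RNA helicase that works with the microRNA complex and is also abundant in germ granules and oocytes, gave 14191, 10495 and 10669 normalized counts in the wild-type libraries against 32812, 19052 and 17200 in those of the knockout. It was at a log2 fold change of 0.92 (SE 0.25, limma adjusted p = 0.101) and was the member called higher in the authors' deposited table (adjusted p = 0.00622), where 4.01% of all tested genes were called higher. *puf-9*, a Pumilio-family gene that helps repress *hbl-1*, was at 0.00 (limma adjusted p = 0.993). *alg-1*, the main Argonaute of the pathway, gave 1909, 2294 and 2313 in wild type against 3178, 2217 and 2219 in the knockout, higher in replicate 1 alone.

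The 16 other timing regulators had a median log2 fold change of -0.06, with 0 higher and 1 lower at an unadjusted p under 0.05 (10.9% and 11.8% of all tested genes) and 0 called in the authors' deposited table (8.14%). The most abundant were *lep-5*, a long noncoding RNA of the pathway, at -0.25 (limma adjusted p = 0.380), and *let-607*, a CREBH transcription factor gene, at 0.20 (0.496), or -0.08 and 0.015 without knockout replicate 1. *lin-42*, the worm relative of Period, whose transcript cycles with each larval stage, gave 1326, 2375 and 2213 normalized counts in the wild-type libraries against 816, 1060 and 1646 in those of the knockout (log2 fold change -0.76, SE 0.29, limma adjusted p = 0.178). Its groups overlapped through wild type replicate 1. *mab-10*, the cofactor of LIN-29, gave 259, 453 and 503 in wild type against 604, 394 and 534 in the knockout, and its lowest library was wild type replicate 1, as it was for *lin-29*.

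Genes that make or handle the DAF-12 hormone centred on a log2 fold change of -0.09 (median of 7 tested), with 0 higher and 1 lower at an unadjusted p under 0.05, a share no larger than over all tested genes (22.6% in either direction). The lower one was *ncr-2*, a Niemann-Pick C1 relative that moves the sterol from which the hormone is made. It gave 539, 618 and 481 normalized counts in the wild-type libraries against 309, 354 and 356 in those of the knockout, with no overlap. Its log2 fold change was -0.68 (SE 0.14, limma adjusted p = 0.0737), and the authors' deposited table called it lower (adjusted p = 0.00394). *daf-9*, the cytochrome P450 of the last step, was at -0.11 (limma adjusted p = 0.781), and the abundant *emb-8* and *din-1*, a P450 reductase and the corepressor of DAF-12, were at 0.08 (0.725) and 0.37 (0.325), or -0.03 and 0.13 without knockout replicate 1.

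Outputs of the larval-to-adult switch centred on a log2 fold change of 0.00 (median of 11 tested genes), with 0 higher and 1 lower at an unadjusted p under 0.05 (22.6% of all tested genes in either direction) and 0 called in the authors' deposited table (8.14%). The list holds genes that LIN-29 activates and genes that it represses, so this median gives no direction for the switch. Relative to the wild-type mean, the list median was -0.72, 0.31 and 0.42 in the wild-type libraries and -0.16, -0.24 and 0.23 in those of the knockout. *col-19*, the adult collagen that LIN-29 activates, gave 26685, 21555 and 24440 normalized counts in the wild-type libraries against 21624, 29886 and 21596 in those of the knockout, with overlapping groups (log2 fold change 0.00, SE 0.17, limma adjusted p = 0.992). *col-7*, also adult, was at -0.31 (0.587), and at -0.04 without knockout replicate 1. *col-17*, a larval collagen that LIN-29 represses, gave 3775, 8849 and 7250 in wild type against 2499, 2750 and 5080 in the knockout, and was at -0.93 (SE 0.35, 0.175). Wild type replicate 1 lay below knockout replicate 3 for *col-17*, *rol-6*, *bli-1* and *bli-2*, all of them cuticle collagens.

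**Figure D5:**
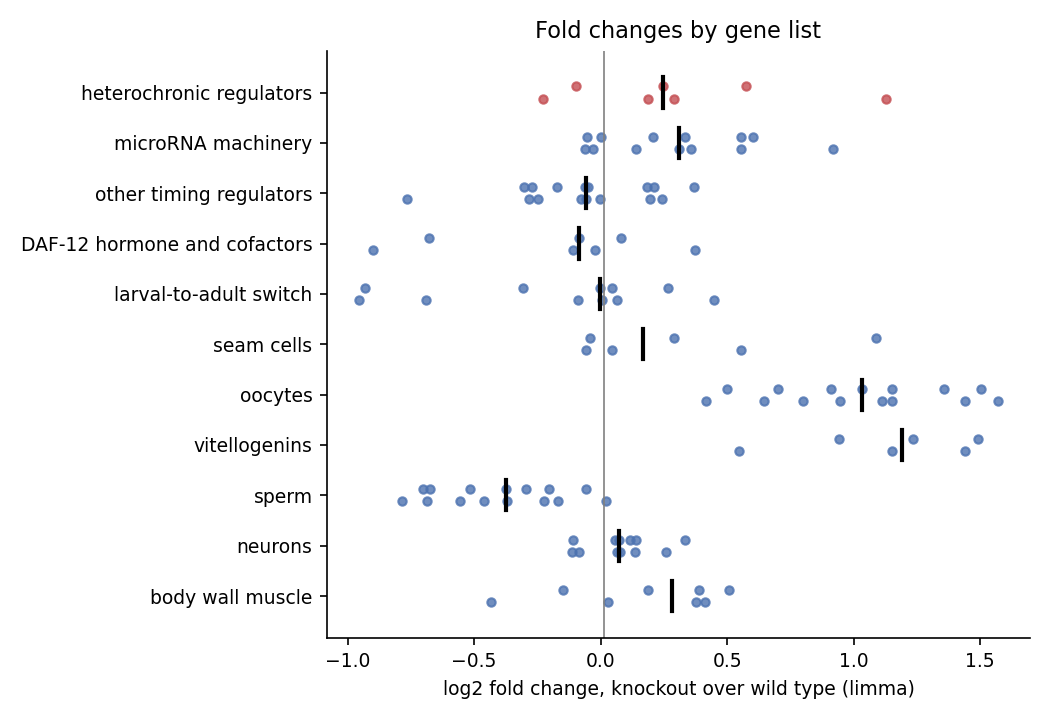
Log2 fold changes of knockout over wild type (horizontal axis, limma) for the 7 regulators and the tested members of 10 companion lists; each point is a gene, the black bar is the median of the list and the grey line that of all tested genes (0.01). The regulators centre on 0.24, and the oocyte and yolk lists on 1.03 and 1.19. The outputs of the larval-to-adult switch, activated and repressed genes together, centre on 0.00.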

How the data were processed

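Per the labels' protocols, TRIzol served to extract the RNA of L4 hermaphrodites and the NEBNext Ultra kit to build the libraries; whether strand is kept is not stated. Names in the submitters' processing notes, listed with no role, are featureCounts 1.5.0-p3, StringTie 1.3.3b, HISAT2 2.0.5, CASAVA 1.8 and DESeq2 1.20.0, with WBcel235 as the build. Without strand, reads of overlapping genes cannot be told apart.

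The signal columns of the deposited table are the authors' normalized counts, that is reads per gene scaled by a size factor for each library. Reads were recovered by undoing that division, and 100% of values came out whole to within 0.01 read. Log2 fold changes, p-values and adjusted p-values of the authors' own comparison are deposited beside them, as is a gene length in bases (an other annotation value). Of the adjusted values, 6267 are exactly 1.

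Groups follow the genotype label. The main test was limma 3.58.1 (R 4.3.3), with a mean trend and moderated variances, on log2(normalized count + 1) of the 15169 of 21507 genes with a mean of at least 10, with Benjamini-Hochberg adjustment over all of them and a threshold of 0.05. edgeR 4.0.16 and DESeq2 1.42.0 were run on the recovered reads as alternatives. Tests were tried on simulated counts. Symbols came from Ensembl 115 and RefSeq locus tags (21059 IDs matched), and coordinates and lengths from the deposited table. The regulators and the companion lists were chosen with earlier results of these data known.

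Genes named besides the 7 regulators were, per companion list, those called by limma or by the deposited adjusted p (at most 4) and the 2 most abundant. For each regulator the 2 genes nearest to it by root-mean-square distance of centred log2 values were taken among the lists and among all tested genes with a mean of at least 50. Other genes were named after their values were seen. Other settings were the authors' deposited test, quantile normalization, other filters (none, 50) and pseudocounts (0.5, 5), a replicate block, sample weights and leaving out each library. DESeq2 without each library was added after seeing the data.

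Whether the replicate numbers pair the samples was not settled by the data. Deviations of same-numbered libraries correlated at 0.20, -0.025 and 0.29 across genes, and those of differently numbered libraries at -0.37 to 0.13. Figures were drawn with Python 3.11.15 and matplotlib 3.10.9.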

Additional observations from a re-analysis of the deposited data

How the results depend on the processing

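Depth (43 reads for the lowest value of *lin-46*) and 3 libraries per genotype limit what can be seen. Each regulator was recomputed under 22 other settings, among which the authors' deposited table and DESeq2 on all libraries gave near-identical values. The directions of *lin-14*, *lin-28*, *hbl-1*, *daf-12* and *lin-41* held in all 22. *lin-46* turned to 0.018 with sample weights, and *lin-29* to -0.015 (limma) and -0.014 (DESeq2) when wild type replicate 1 was left out (limma range over left-out libraries -0.015 to 0.31); the cause was not tested. *lin-41* passed at a log2 fold change of 1.29 in the authors' deposited table and in DESeq2, at 1.13 with the replicate block and, in DESeq2 with a library left out, at 1.46 (wild type 1), 0.62 (knockout 1), 1.54 (knockout 2) and 1.53 (knockout 3); over all settings its adjusted p ran from 0.00149 to 0.374. The other 6 regulators passed in none of the 22 settings, with adjusted p from 0.0736 upward.

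The count of regulators called was 1 in the authors' deposited table, in DESeq2 and with the replicate block, and 0 to 1 in DESeq2 without single libraries. For companion genes it was 10 in the authors' deposited table and in DESeq2, 17 with the replicate block, 1 with no filter, 1 with sample weights and in DESeq2 with a library left out 17, 1 and 2 (wild type 1 to 3) and 7, 24 and 19 (knockout 1 to 3). Over all genes it was 54 in limma, 1236 in the authors' deposited table and in DESeq2, 164 with no filter, 19 with a filter of 50, 19 with a pseudocount of 0.5, 688 with the replicate block, 9 in edgeR, 320 with sample weights, 0 to 247 in limma with a library left out (0 for wild type 1, wild type 2 and knockout 3, 1 for wild type 3, 247 for knockout 2) and, in DESeq2 likewise, 755, 293 and 628 (wild type 1 to 3) and 733, 1730 and 1045 (knockout 1 to 3). The replicate block changed no call among the regulators besides that of *lin-41*. With the longest annotated transcript, levels per kb in wild type were 196 for *lin-14*, 25.2 for *hbl-1*, 292 for *lin-41* and 208 for *daf-12*. The balance of late against early regulators ran from -0.55 to -0.11 when a library was left out, and was -0.25 with *lin-29* alone as the late side.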
